A study of Homo sapiens with 4 samples.

Results

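The genes described here had less signal in both doxorubicin libraries than in both untreated libraries by the widest margin. They were selected on the measured values themselves. The number of reads counted on a gene was divided by the total of its library and given as CPM, on a scale where each library sums to 1000000. Genes with a CPM of at least 1 in both untreated libraries were ranked by the lower untreated CPM over the higher doxorubicin CPM, with 0.1 added to the latter, and the 150 genes with the highest ratio were taken. Of the 59050 genes in the count data, 12549 had the CPM needed to be ranked, and the 150 came from these. ALPP was left out by the rule, so 149 genes are described. Their lower level after doxorubicin is therefore how they were found and not a result. The values are given as a description, with no test over the members.

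The 4 RNA-seq libraries were labelled HepG2, a human line from a liver tumor. The untreated group (0 h) had 2 libraries, and the other 2 came from cells given doxorubicin at 1 ug/ml for 24 h, which the study used to induce p53. No other agent or genotype was named in either group, and the replicates were described as biological. Of 16 hepatocyte markers, 9 had under 10 counts in every library, and ALB, the serum albumin of liver cells, had at most 3 counts. The summed CPM of the 16 markers was 1.35 and 5.89 in the untreated libraries and 17.2 and 20.1 in the doxorubicin libraries. Most of the doxorubicin sums came from a few of the markers, so they do not describe the 16 as a set. KRT8 and KRT18, keratins of simple epithelium, were abundant, while EPCAM and CDH1 had at most 21 counts. The labelled cell type was thus not borne out by its defining markers, and the libraries are named by their labels. CDKN1A, the cell cycle inhibitor p21 and a target of p53, had 380 and 866 CPM in untreated cells and 1003 and 880 CPM after doxorubicin. Of 28 ranked canonical p53 targets, 4 (14.3%) were higher in both doxorubicin libraries and 2 were lower. Of all ranked genes, 29.9% were higher and 13.2% lower. RNA of a whole culture entered each library, so fewer cells of a type and less RNA per cell cannot be told apart.

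Doxorubicin slips between the base pairs of DNA and traps topoisomerase II on it, which breaks DNA and stalls transcription. RNA polymerase I, which copies the ribosomal RNA genes in the nucleolus, is among the processes known to be sensitive to such drugs. Sterol and fatty acid synthesis is run by SREBF1 and SREBF2, membrane-bound factors that are cut when cell sterol is low and then switch on most enzymes of both pathways. Members of these processes, and of epithelial and developmental programs, are described below by role.

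The libraries held between 27572740 and 36272180 counts. Untreated replicate 2 stood apart from the other 3. Across the 17479 genes with enough counts for edgeR, the correlation of log2 CPM was 0.887 between the untreated replicates and 0.988 between the doxorubicin replicates. Genes are not independent replicates, and these values are a description. Its difference from untreated replicate 1 moved with gene length. In protein-coding genes spanning under 10 kb the median ratio of untreated replicate 2 to replicate 1 was 1.42, while it was 0.889 for genes of 10 kb to under 100 kb and 0.41 for longer genes. The mean doxorubicin CPM over that of untreated replicate 1 had medians of 1.03, 1.09 and 1.11 in the same bins. Of the 149 members, 124 (83.2%) were higher in untreated replicate 2 than in replicate 1, against 5655 of the 12549 ranked genes (45.1%). The doxorubicin replicates lay within 1.25 times of each other in 115 members (77.2%), against 70.2% of the ranked genes, and the untreated replicates in 51 (34.2%), against 23.2%. The closer doxorubicin replicates were thus a trait of the libraries as a whole.

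All 149 members have groups that do not overlap, since the ranking favours such a gap and the lowest ratio taken was 1.34. Among the 12549 ranked genes, 1661 (13.2%) were lower in both doxorubicin libraries than in both untreated ones, and 3757 (29.9%) were higher in both. The split depended on the scaling. With TMM factors, which correct library totals for composition, 2665 genes were lower and 2409 higher. The median log2 fold change of all genes tested was 0.17 on library totals and 0.01 with TMM. The lower untreated CPM was at least 2 times the higher doxorubicin CPM in 20 ranked genes (0.159%), of which 19 were members. For most members the margin was small. The ranking ratio had a median of 1.44 and ran from 1.34 to 17.95, and it was at least 2 in 14 members and at least 1.5 in 54. By group means, the members were between 26.5% and 98.6% lower after doxorubicin, with a median of 50.02%. In the quasi-likelihood test of edgeR across 17479 genes, 0 (0%) were called lower, at a Benjamini-Hochberg adjusted p under 0.05 with at least a 2-fold difference. The smallest adjusted p of that edgeR test was 0.773, and 768 genes had an unadjusted p under 0.05. DESeq2 called 43 genes lower, 5 of them members (GON7, ZNRD1, FP671120.5, SUSD2 and FAM222A), and a block on replicate number in edgeR gave 4 lower genes, with GON7 and ZNRD1 among them. Since the members were chosen on this contrast, these calls are a description. Which genes were taken rested on single libraries. Of the 150 genes, 47 were still taken without untreated replicate 2 and 3 without untreated replicate 1. The counts were 80 and 86 without doxorubicin replicate 1 or 2. GON7, ZNRD1 and FAM222A were taken whichever library was left out.

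**Figure D1:**
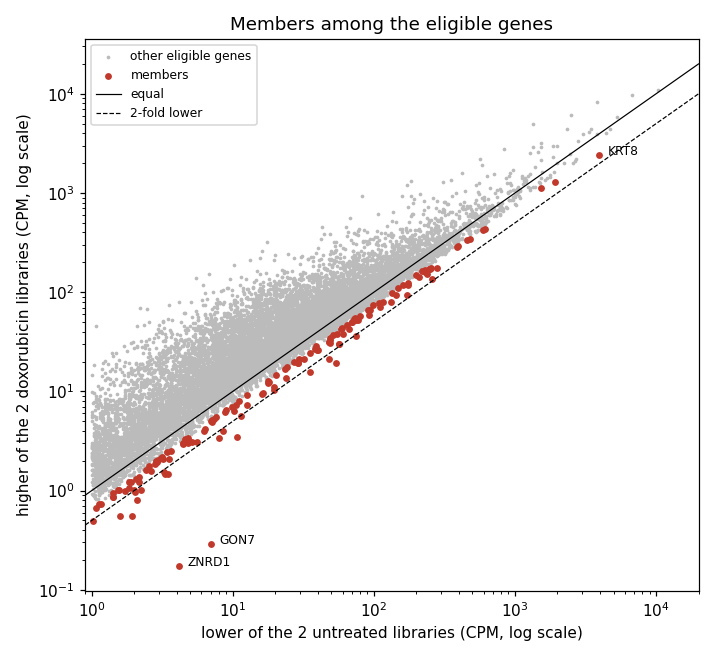
Each point is a ranked gene, with the lower of its 2 untreated CPM values on the x axis and the higher of its 2 doxorubicin CPM values on the y axis (both log scales). The members (red) lie along the lower edge of the other genes (grey), 19 of them on or below the dashed line of a 2-fold difference, and GON7 and ZNRD1 lie far below the rest.

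GON7 and ZNRD1 ranked first and differed from the rest in size. GON7 encodes a small subunit of the KEOPS complex, which modifies transfer RNAs. It had 7.003 and 15.3 CPM in the untreated libraries and 0.175 and 0.290 CPM in the doxorubicin libraries. These rest on 254 and 441 counts against 6 and 8, a mean 97.9% lower with a log2 fold change of -5.74 (standard error 0.83). Each untreated library was above both doxorubicin libraries, which were close to the bottom of the measurable range. GON7 spans 4.17 kb on chromosome 14 (93202894 to 93207065, minus strand, GRCh38). UBR7, which starts beside it, had 7.72 and 7.83 CPM in untreated cells and 6.44 and 5.48 CPM after doxorubicin. Its level thus moved far less than that of GON7 between the groups.

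ZNRD1, now named POLR1H, encodes a small subunit of RNA polymerase I that takes part in cutting back the nascent RNA. It had 4.16 and 18.1 CPM in untreated cells and 0.175 and 0.145 CPM after doxorubicin, from 151 and 522 counts against 6 and 4. The untreated replicates were themselves over 4-fold apart, and both were far above the doxorubicin libraries. The log2 fold change was -6.21 (standard error 1.14). The gene lies on chromosome 6 (30058899 to 30064909, plus strand, GRCh38), and PPP1R11, its neighbour, had at most 54 counts in any library. Differences of this size were not seen in the other RNA polymerase I subunits examined. POLR1A, the largest, had 163 and 80.2 CPM in untreated cells and 112 and 89.7 CPM after doxorubicin, so the groups overlapped. POLR1B overlapped as well, with 79.2 and 24.7 CPM against 62.1 and 70.9 CPM. POLR1E, POLR1C and CD3EAP were lower without overlap. POLR1E, a member at rank 44, had 60.3 and 66.9 CPM against 38.3 and 33.7 CPM. POLR1C had 37.6 and 69.0 CPM against 31.04 and 29.2 CPM. CD3EAP had 19.55 and 31.1 CPM against 16.7 and 12.7 CPM. The window of 250 bases before the RefSeq start of ZNRD1 (chr6:30061015-30061264, plus strand, GRCh38.p14) is shown because of its size of change and its dense short motifs. Capitals mark CCAAT boxes, read as CCAAT or ATTGG by strand, and a cyclic AMP response element (TGACGTCA).
ZNRD1: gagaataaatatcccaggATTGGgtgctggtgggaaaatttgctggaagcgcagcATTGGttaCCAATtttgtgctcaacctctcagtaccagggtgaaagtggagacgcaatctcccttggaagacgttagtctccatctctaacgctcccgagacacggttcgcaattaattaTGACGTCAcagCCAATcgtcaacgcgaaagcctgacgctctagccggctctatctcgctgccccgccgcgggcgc
The window held 4 CCAAT boxes and the response element 75 bases before the start. TGACGTCA was present in 4 of the 95 member promoters that matched the RefSeq table (4.21%), against 3.20% of the 9357 ranked genes that matched and 1.84% of all 27305 promoters.

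**Figure D2:**
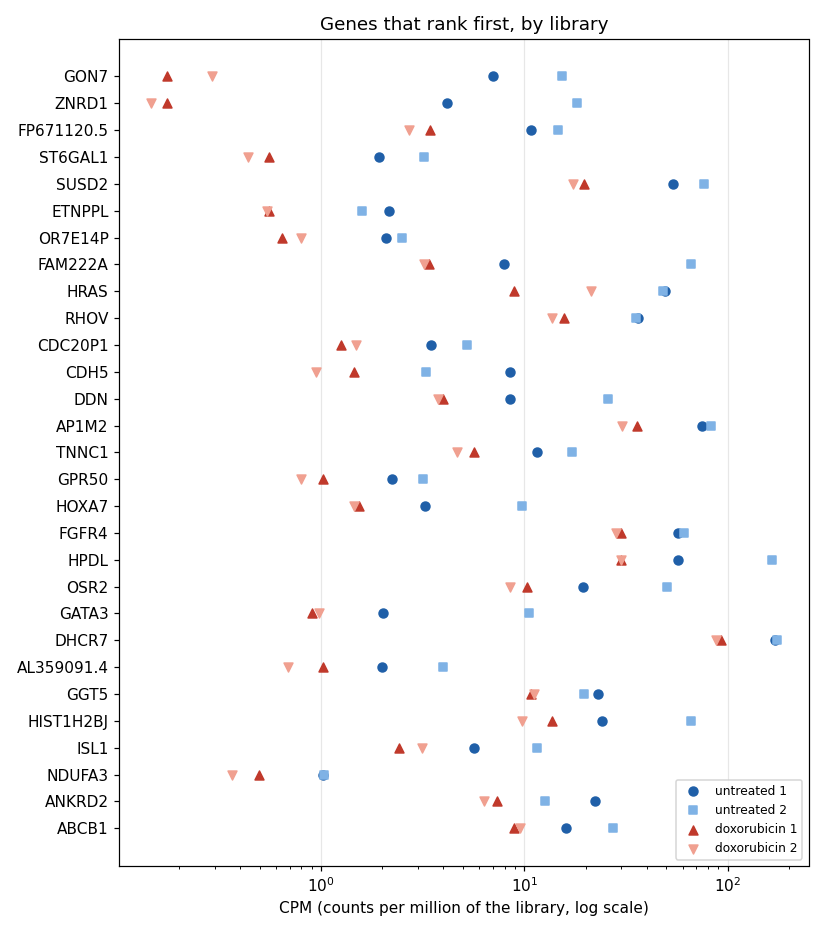
CPM of 29 of the 30 members that rank first (y axis, in rank order from the top) in each of the 4 libraries on a log scale. In every row the 2 untreated libraries (blue) lie to the right of the 2 doxorubicin libraries (red). This follows from the ranking by that gap, which is widest for GON7 and ZNRD1.

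Sterol and fatty acid synthesis contributed 10 members, from the regulators to the enzymes. Their means were between 32.6% and 61.8% lower, with a median of 47.2%, and in 6 of the 10 the untreated replicates were within 1.25 times of each other, against 51 of all 149 members. DHCR7, the enzyme of the final step of cholesterol synthesis, had 171 and 175 CPM in untreated cells and 93.2 and 87.4 CPM after doxorubicin. FDFT1, squalene synthase, had 132 and 136 CPM against 79.1 and 78.3 CPM. In both the replicates of a group nearly coincided and the groups were well apart. Their log2 fold changes were -1.09 (standard error 0.30) and -0.92 (standard error 0.30).

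The regulators themselves were also members. SREBF2, which favours the sterol genes, had 239 and 230 CPM in untreated cells and 161 and 155 CPM after doxorubicin. SREBF1, which favours the fatty acid genes, had 257 and 231 CPM against 169 and 130 CPM. Both were thus lower by a similar share, with means 32.6% and 38.7% lower. ACLY makes the acetyl-CoA from which both pathways start, and it had 616 and 1097 CPM against 433 and 421 CPM. IDI1, an isomerase of the isoprenoid units, had 51.4 and 122 CPM against 32.8 and 36.8 CPM. NSDHL, a dehydrogenase that removes methyl groups from the sterol ring, had 58.9 and 152 CPM against 42.8 and 37.9 CPM. In these 3 untreated replicate 2 was far above untreated replicate 1, so the lower mean rested in part on that library. EBP, a sterol isomerase, had 90.3 and 104 CPM against 65.6 and 56.2 CPM. ACAT2, a thiolase of the cytosol that joins acetyl-CoA units, had 40.3 and 51.4 CPM against 26.2 and 22.8 CPM.

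Of a list of 35 cholesterol and fatty acid synthesis genes, 9 were members (25.7%), against 1.19% of all ranked genes. ACAT2 is not in that list. The number of list genes taken moved with single libraries. It was 0 without untreated replicate 1, 4 without untreated replicate 2, 6 and 4 without doxorubicin replicate 1 or 2, and 0 when genes were ranked by the ratio of group means. The list was written with earlier results of these data known and is no independent evidence of direction. All 35 were ranked, and 20 (57.1%) were lower in both doxorubicin libraries against 13.2% of all ranked genes, while 1 was higher. Without untreated replicate 2 the counts were 25 lower and 6 higher, beside 3586 lower and 6142 higher among all ranked genes. On TMM-scaled CPM they were 24 and 1, beside 2665 lower and 2409 higher among all 12549 ranked genes. Just outside the 150, FDPS had 154 and 234 CPM against 117 and 93.8 CPM at rank 172. INSIG2, which holds SREBF proteins in the endoplasmic reticulum, was the gene of the list with higher values after doxorubicin, at 12.8 and 4.22 CPM against 34.1 and 37.0 CPM.

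**Figure D3:**
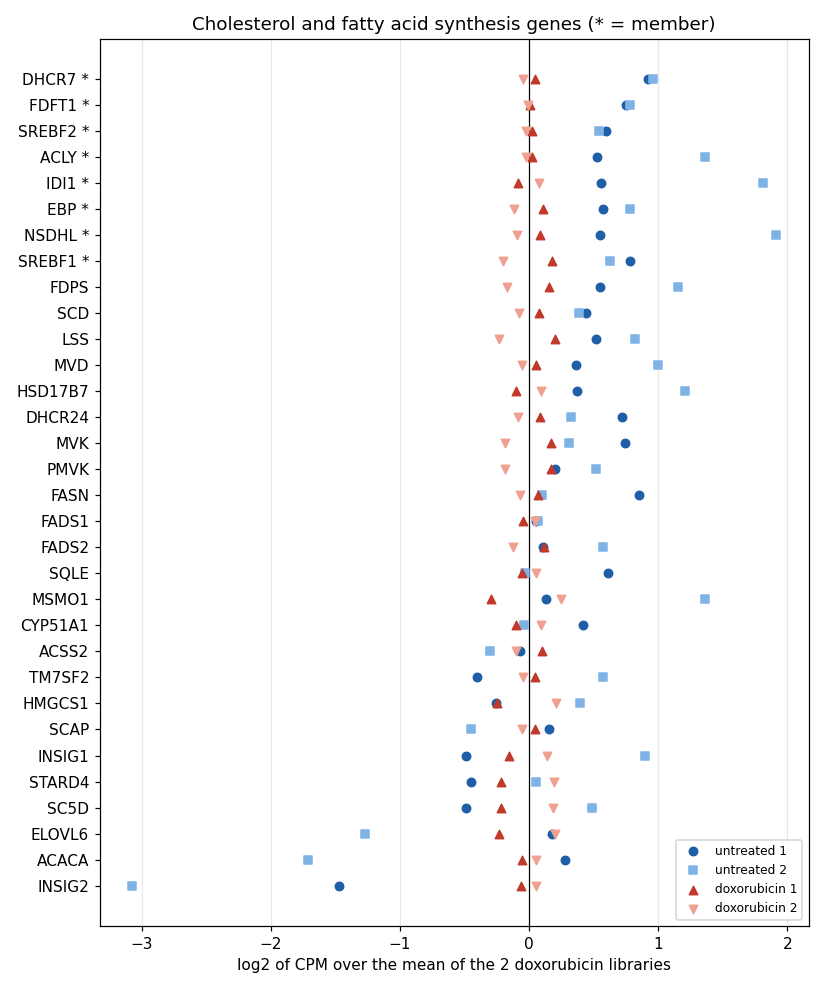
The 32 genes shown of the cholesterol and fatty acid synthesis list in rank order (members marked by an asterisk), with each library's CPM divided by the mean of the 2 doxorubicin libraries on a log2 scale. For DHCR7, FDFT1 and SREBF2 the 2 untreated libraries sit together to the right of 0, for IDI1 and NSDHL untreated replicate 2 is far out, and for INSIG2 both lie to the left.

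Upstream windows of some of the sterol members are shown, all of which hold a motif that the ranking did not use. Each is the 250 bases before the RefSeq start (GRCh38.p14). Capitals mark CCAAT boxes (CCAAT, or ATTGG where it is read on the other strand) and, in SREBF2, a sterol regulatory element (TCACNCCAC). The windows are chr22:41832855-41833104 (SREBF2, plus strand), chrX:152830813-152831062 (NSDHL, plus strand), chrX:48521558-48521807 (EBP, plus strand), chr10:1049120-1049369 (IDI1, minus strand) and chr11:71448394-71448643 (DHCR7, minus strand).
SREBF2: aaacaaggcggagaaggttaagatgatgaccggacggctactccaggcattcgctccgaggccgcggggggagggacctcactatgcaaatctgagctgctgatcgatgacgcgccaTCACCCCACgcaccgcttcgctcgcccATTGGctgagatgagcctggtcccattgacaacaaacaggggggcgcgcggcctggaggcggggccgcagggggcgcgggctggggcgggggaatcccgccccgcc
NSDHL: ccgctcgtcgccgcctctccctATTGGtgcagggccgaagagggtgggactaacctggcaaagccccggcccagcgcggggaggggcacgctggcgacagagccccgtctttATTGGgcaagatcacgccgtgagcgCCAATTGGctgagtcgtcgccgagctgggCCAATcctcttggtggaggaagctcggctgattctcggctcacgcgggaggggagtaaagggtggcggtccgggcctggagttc
EBP: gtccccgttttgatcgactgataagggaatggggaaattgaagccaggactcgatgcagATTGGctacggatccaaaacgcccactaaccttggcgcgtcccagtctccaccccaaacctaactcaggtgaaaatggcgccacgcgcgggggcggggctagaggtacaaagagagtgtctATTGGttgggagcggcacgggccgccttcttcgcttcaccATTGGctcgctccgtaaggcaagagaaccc
IDI1: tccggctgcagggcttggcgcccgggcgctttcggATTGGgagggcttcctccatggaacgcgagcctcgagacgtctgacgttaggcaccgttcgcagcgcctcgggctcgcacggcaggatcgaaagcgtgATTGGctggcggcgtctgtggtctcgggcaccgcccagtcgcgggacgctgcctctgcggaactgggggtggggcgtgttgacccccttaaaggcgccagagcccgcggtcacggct
DHCR7: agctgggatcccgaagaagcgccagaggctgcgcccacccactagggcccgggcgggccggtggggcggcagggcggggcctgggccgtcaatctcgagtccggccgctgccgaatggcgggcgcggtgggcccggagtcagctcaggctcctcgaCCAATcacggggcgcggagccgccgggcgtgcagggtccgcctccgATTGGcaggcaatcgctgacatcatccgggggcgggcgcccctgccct
A CCAAT box was found in 6 of the 7 sterol list members that matched the RefSeq table (85.7%), and in 18 of the 28 matched genes of the list (64.3%). It was found in 35.8% of the promoters of ranked genes and in 33.2% of all promoters. SREBF1 was the matched member without a CCAAT box. The GC box (GGGCGG) was also found in 6 of the 7 (85.7%) and in 27 of the 28 (96.4%), against 72.6% of promoters of ranked genes. The NSDHL window held the motif 5 times, with a match on each strand overlapping in the run CCAATTGG. TCACNCCAC was found in 1 of the 28 promoters of the list, that of SREBF2, where it lies 133 bases before the start, and in 0.887% of the promoters of ranked genes. A match is a run of letters and not a measured binding site.

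Ribosome assembly and RNA polymerase I made up 12 members. Apart from ZNRD1 they were between 33.6% and 57.8% lower by means. NOP16, a nucleolar protein of the large ribosomal subunit, had 92.4 and 129 CPM in untreated cells and 59.0 and 50.8 CPM after doxorubicin. GRWD1, a chaperone of a ribosomal protein, had 182 and 175 CPM against 118 and 97.3 CPM. BYSL, which serves the small subunit, had 94.0 and 114 CPM against 66.6 and 56.7 CPM. These values put each doxorubicin library clearly under both untreated ones. DHX37, a helicase of small-subunit assembly, had 146 and 135 CPM against 98.8 and 87.5 CPM. EXOSC4, a core subunit of the RNA exosome, had 59.3 and 122 CPM against 43.4 and 32.9 CPM, with the untreated replicates further apart than the group means. NOC2L, a nucleolar factor and the last gene taken, had 385 and 493 CPM against 288 and 252 CPM. The others were EBNA1BP2, GPATCH4, CCDC86 and MRTO4, with means between 41.2% and 45.5% lower.

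A list of 127 ribosome assembly and RNA polymerase I genes, written after the members were seen, holds all of these 12. They are lower by selection and add to its count of lower genes. The list is thus no independent evidence of direction. Of its genes, 1 was taken without untreated replicate 1, 3 without untreated replicate 2, 7 and 5 without doxorubicin replicate 1 or 2, and 1 when ranked by the ratio of group means. All 127 were ranked, 39 (30.7%) were lower in both doxorubicin libraries and 9 were higher, against 13.2% and 29.9% of all ranked genes. Without untreated replicate 2, 84 of the 127 were lower and 15 higher, beside 3586 lower and 6142 higher of the 12549 ranked genes. Without untreated replicate 1, 52 were lower and 66 higher, beside 4584 and 6913 of the ranked genes, so the list was then close to the background. Among the genes of the list outside the 150, FBL, the methyltransferase of nucleolar RNA, had 194 and 230 CPM against 152 and 135 CPM. NCL, nucleolin, had 1018 and 975 CPM against 821 and 844 CPM. Their groups did not overlap, at margins smaller than those of the members.

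Proteins that process messenger, transfer and small nuclear RNA gave 8 members, GON7 included. PRMT1, the main asymmetric arginine methyltransferase, had 239 and 334 CPM in untreated cells and 152 and 136 CPM after doxorubicin. DDX39A, a helicase of mRNA export, had 265 and 255 CPM against 177 and 148 CPM. SNRPF, a core protein of spliceosomal particles, had 73.4 and 73.7 CPM against 53.7 and 54.4 CPM. SNRPF had the lowest percentage of all members, 26.5%, yet its replicates hardly differed. The others were THG1L, ALYREF, YBX1 and WRAP53, with means up to 42.9% lower.

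Cell cycle and DNA repair supplied 6 members. CDC20 activates the anaphase-promoting complex in mitosis and had 279 and 299 CPM in untreated cells and 174 and 157 CPM after doxorubicin. Its log2 fold change was -0.96 (standard error 0.29), and the replicates of each group were close. The CDC20 window (chr1:43358731-43358980, plus strand, GRCh38.p14) is shown for the pairing of 2 motifs known from promoters of mitotic genes. Capitals mark CCAAT boxes and TTTGAA, the cell cycle homology element (TTCAAA on the other strand).
CDC20: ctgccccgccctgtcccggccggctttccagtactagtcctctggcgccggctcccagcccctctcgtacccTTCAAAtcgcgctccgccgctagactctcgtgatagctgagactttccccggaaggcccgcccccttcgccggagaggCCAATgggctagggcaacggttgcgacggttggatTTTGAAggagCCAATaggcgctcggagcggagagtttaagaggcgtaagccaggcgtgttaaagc
TTTGAA was found in 5 of the 95 member promoters (5.26%) and in 7.28% of the promoters of ranked genes. Of 60 ranked genes in a list for G2/M and mitosis, CDC20 was the sole member, 13 were lower in both doxorubicin libraries and 13 were higher, against 13.2% and 29.9% of all ranked genes. On TMM-scaled CPM the counts were 21 lower and 8 higher, beside 2665 lower and 2409 higher of all 12549 ranked genes. ORC1, a subunit that marks replication origins, had 66.3 and 77.7 CPM against 43.1 and 37.9 CPM. It was the sole member among 48 genes of DNA replication, of which 24 were lower in both doxorubicin libraries and 3 higher. SFN, stratifin, a checkpoint protein, had 252 and 723 CPM against 173 and 153 CPM, with a gap between untreated replicates larger than that between groups. The others were ALKBH2, which repairs alkylated bases, SWSAP1, which assists recombination, and DCTPP1, which clears odd nucleotides, with means between 37.5% and 65.8% lower.

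The replication histone genes HIST1H2BJ and HIST1H2BK were members, 13.6 kb apart in the histone cluster of chromosome 6. HIST1H2BK had 144 and 426 CPM in untreated cells and 94.6 and 65.8 CPM after doxorubicin. HIST1H2BJ had 24.0 and 65.9 CPM against 13.6 and 9.76 CPM. In both, untreated replicate 2 was over 2.5 times untreated replicate 1. Among 37 ranked replication histone genes, 13 were lower in both doxorubicin libraries and 0 higher, against 13.2% and 29.9% of all ranked genes. Without untreated replicate 2 the counts were 13 lower and 15 higher, beside 3586 lower and 6142 higher among all ranked genes.

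Genes of epithelial structure and cell junctions numbered 8, with the endothelial cadherin CDH5 counted among the latter. KRT8, a keratin of simple epithelium, had the highest level per length of the members with a transcript length, at 2301 and 2224 CPM per kb of transcript in untreated cells and 1368 and 1170 CPM per kb after doxorubicin. Its CPM was 4105 and 3968 against 2440 and 2088, and the log2 fold change was -0.99 (standard error 0.26). KRT18, its partner keratin, overlapped between groups, with 1793 and 783 CPM against 1086 and 937 CPM. RHOV, a small GTPase, had 36.1 and 35.3 CPM against 15.7 and 13.7 CPM. AP1M2, the epithelial subunit of a clathrin adaptor, had 74.9 and 82.7 CPM against 35.9 and 30.3 CPM. Both were more than 2-fold apart between groups with close replicates. ESRP2, a regulator of epithelial splicing, had 79.6 and 77.5 CPM against 52.3 and 49.4 CPM. CDH5, the cadherin of endothelial junctions, had 8.52 and 3.29 CPM against 1.46 and 0.943 CPM, and PECAM1, another endothelial marker, stayed between 0.935 and 1.16 CPM in all libraries. UPK3B, a uroplakin, and CGN, a tight junction protein, were also members.

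Actin, microtubule and calcium-binding proteins numbered 12. FSCN1, fascin, bundles actin filaments and had 1915 and 2574 CPM in untreated cells and 1300 and 1132 CPM after doxorubicin. S100A4, a calcium-binding protein of motile cells, had 480 and 604 CPM against 348 and 302 CPM. TNNC1, troponin C of slow and cardiac muscle, had 11.5 and 17.2 CPM against 5.65 and 4.64 CPM. The doxorubicin replicates were close in all 3. DDN, dendrin, had 8.49 and 25.8 CPM against 3.96 and 3.77 CPM. ANKRD2, a muscle ankyrin repeat protein, had 22.2 and 12.6 CPM against 7.37 and 6.31 CPM, and here untreated replicate 1 was the higher. PDLIM1, MAPRE2, KPTN, AIF1L, ARHGDIB, TESC and CFAP57 had means between 33.5% and 62.6% lower.

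Developmental transcription factors gave 9 members and were among the roles with the largest median difference, 67.7% lower by means. GATA3, a zinc finger factor, had 2.01 and 10.5 CPM in untreated cells and 0.903 and 0.979 CPM after doxorubicin. HOXA7 had 3.25 and 9.70 CPM against 1.54 and 1.45 CPM. OSR2, an odd-skipped factor, had 19.5 and 50.3 CPM against 10.3 and 8.52 CPM. In each, untreated replicate 2 was more than 2.5 times untreated replicate 1, and in the 9 genes the median of that ratio was 2.05. NR2F1, a nuclear receptor, was the exception in having close untreated replicates, with 48.2 and 52.7 CPM against 29.8 and 31.7 CPM. ISL1, ATF5, MCIDAS, HOXB6 and HOXA11 had means between 43.0% and 71.5% lower. Of 24 ranked HOX genes, 3 were members (12.5%), against 1.19% of all ranked genes. Of these 24, 8 were lower in both doxorubicin libraries and 1 higher, against 13.2% and 29.9% of all ranked genes. Without untreated replicate 2 the HOX genes were 8 lower and 9 higher, beside 3586 and 6142 of all ranked genes.

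Receptors, ligands and their signalling gave 11 members. HRAS, the small GTPase downstream of growth factor receptors, had 49.5 and 48.2 CPM in untreated cells and 8.89 and 21.3 CPM after doxorubicin. Here the untreated replicates coincided and the doxorubicin replicates were 2.40-fold apart, 1 of 2 members with doxorubicin replicates over 2-fold apart. FGFR4, a fibroblast growth factor receptor typical of liver, had 56.8 and 60.9 CPM against 29.8 and 28.1 CPM. RGS2, which dampens G protein signals, had 38.0 and 38.0 CPM against 26.6 and 25.6 CPM. For FGFR4 and RGS2 the gap between groups was several times that between replicates. TGFB3, a ligand of the transforming growth factor family, had 3.14 and 14.5 CPM against 2.19 and 1.81 CPM, which rested on untreated replicate 2. GPR50, ANXA2R, RASL11A, ADAMTS1, CCL2, EHD1 and NPR1 had means between 41.1% and 82.9% lower.

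Channels and transporters gave 6 members. ABCB1, the efflux pump P-glycoprotein that carries doxorubicin out of cells, had 16.1 and 27.2 CPM in untreated cells and 8.86 and 9.47 CPM after doxorubicin. Its log2 fold change was -1.39 (standard error 0.46), and it is among the few members with a long gene, at 210 kb. KCNK5, a potassium leak channel, had 16.3 and 17.2 CPM against 8.57 and 9.65 CPM. AQP3, a water and glycerol channel, had 39.6 and 124 CPM against 25.2 and 26.3 CPM. The solute carriers SLC5A6 and SLC4A8 and CHRND, an acetylcholine receptor subunit, had means between 36.2% and 58.6% lower.

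Mitochondrial proteins gave 6 members and other lipid genes 4. MRPS12, a mitochondrial ribosomal protein, had 116 and 245 CPM in untreated cells and 79.9 and 61.4 CPM after doxorubicin. UCP2, an uncoupling protein, had 7.17 and 10.4 CPM against 4.90 and 3.77 CPM. NDUFA3, a subunit of respiratory complex I, was near the lower bound of the rule, with 1.02 and 1.04 CPM against 0.495 and 0.363 CPM. The values of NDUFA3 come from counts of 37 and 30 against 17 and 10, so counting error is large. DBI, an acyl-CoA binding protein, had 110 and 252 CPM against 68.5 and 71.5 CPM.

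The 17 other protein-coding members had varied functions. SUSD2, a membrane protein with a sushi domain, had 53.7 and 76.1 CPM in untreated cells and 19.6 and 17.4 CPM after doxorubicin, with a log2 fold change of -1.96 (standard error 0.39). GGT5, a gamma-glutamyl transferase of leukotriene metabolism, lies 30.5 kb from SUSD2 on chromosome 22 and had 23.0 and 19.7 CPM against 10.8 and 11.2 CPM. Both had close doxorubicin replicates, well under the untreated ones. FAM222A had 7.97 and 66.0 CPM against 3.41 and 3.19 CPM, and here untreated replicate 2 was over 8 times untreated replicate 1. ODC1, the rate-limiting enzyme of polyamine synthesis, had 591 and 728 CPM against 423 and 375 CPM. PRDX6, a peroxiredoxin, had 456 and 675 CPM against 331 and 337 CPM. HPDL had 56.7 and 165 CPM against 29.8 and 29.9 CPM. For ODC1, PRDX6 and HPDL the doxorubicin replicates were close to each other and the untreated ones were less so. ST6GAL1, a sialyltransferase, had 1.93 and 3.22 CPM against 0.554 and 0.435 CPM, and ETNPPL, a lyase of phosphoethanolamine, had 2.15 and 1.59 CPM against 0.554 and 0.544 CPM.

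**Figure D4:**
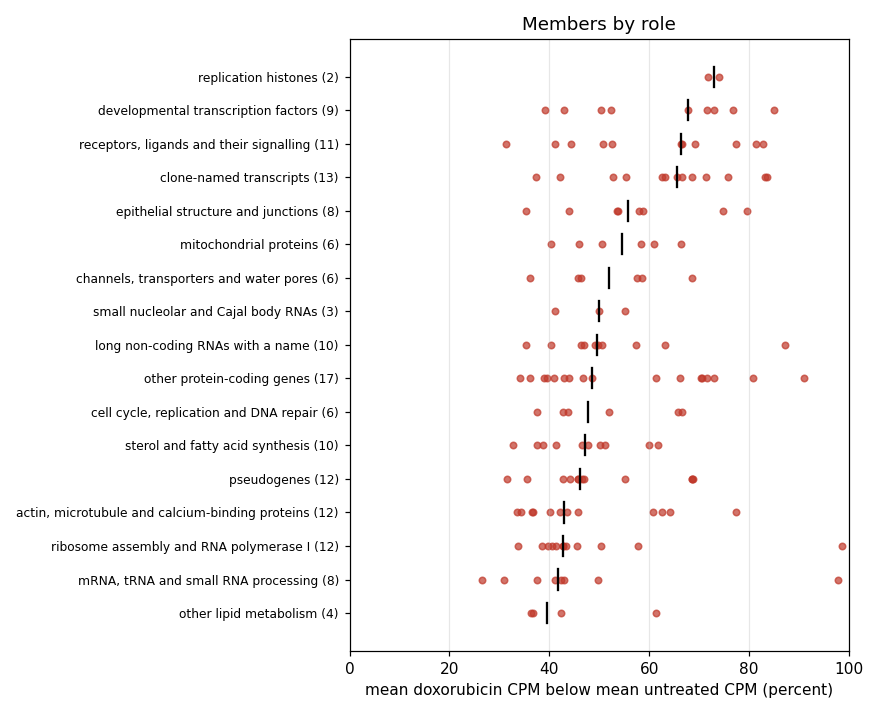
Percentage by which the mean doxorubicin CPM lay below the mean untreated CPM for each of the 149 members (points), by role with the number of genes in parentheses, and the median of each role (black line). Medians run from 39.5% for other lipid metabolism to 72.9% for replication histones, and GON7 and ZNRD1 are the points near 100.

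Pseudogenes, non-coding RNAs and transcripts with clone names made up 38 members. Of these 13 carry clone names, 12 are pseudogenes, 10 are named long non-coding RNAs and 3 are small nucleolar or Cajal body RNAs. FP671120.5, at rank 3, had 10.8 and 14.7 CPM in untreated cells and 3.44 and 2.72 CPM after doxorubicin. Clone-named transcripts could not be matched to the annotation used here, so no location is given for them. SNHG3, a host gene of small nucleolar RNAs, had 48.9 and 49.0 CPM against 33.3 and 25.2 CPM, and SNORA73A, which lies within it, had 1.85 and 2.39 CPM against 0.670 and 1.23 CPM. YTHDF3-AS1 had 2.65 and 18.8 CPM against 1.57 and 1.16 CPM, while YTHDF3 on the other strand overlapped between groups, with 98.3 and 168 CPM against 99.4 and 132 CPM. The reads of antisense partners cannot be told apart without strand.

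Processed pseudogenes resemble the mRNA of their parent gene, and reads may have been split between the copies, so their values are uncertain. CDC20P1 had 3.47 and 5.23 CPM in untreated cells and 1.25 and 1.49 CPM after doxorubicin, and its parent CDC20 is also a member. YBX1P10 was 42.8% lower by means and its parent YBX1, an RNA-binding cold shock protein and a member, was 41.2% lower. HMGA1P8 was 44.1% lower, beside 27.5% for HMGA1, which ranked 153. RPL12P16 was 47.0% lower, beside 41.1% for RPL12 at rank 312. PPIAP31 was 45.7% lower, beside 39.4% for PPIA at rank 254. RPLP0P6 was 35.4% lower, beside 28.4% for RPLP0 at rank 590. In these pairs the copy was lower by a share like that of its parent or a larger one. RPS10P3 went the other way, at 31.5% lower beside 51.6% for RPS10, and its untreated level of 7.33 and 7.72 CPM was above that of RPS10 itself, at 0.717 and 2.39 CPM.

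The members' genes were short and rich in G and C. Of the 149 members, 136 were matched to the annotation, and 111 of these encode proteins. The median span of the 111 was 10.7 kb (95% order-statistic interval 8.32 to 13.7 kb), against 33.3 kb for the 10959 ranked protein-coding genes. Spans under 10 kb were found in 47.7% of the members and 18.5% of the ranked genes, and spans of at least 100 kb in 4.50% and 19.0%. The transcripts had a median length of 2.04 kb against 3.39 kb, a median of 6 exons against 9, and a median GC content of 56.2% against 48.3%. Short span moved with untreated replicate 2, as given above. When the ranking was made without that library, the median span was 26.1 kb over 102 protein-coding genes and 23.5% were under 10 kb, while the median GC content was 56.9%. The short span of the members thus depended on untreated replicate 2. The ranked protein-coding genes were also split by GC content into equal bins of 3653. From the lowest to the highest bin, the median of mean doxorubicin CPM over untreated replicate 1 was 1.18, 1.04 and 1.01. Over untreated replicate 2 it was 1.61, 1.26 and 0.995. Lower ratios in genes rich in G and C were thus a trait of the ranked genes as a whole. Whether the GC content of the members goes beyond this was not tested. Without untreated replicate 1, 16 of the genes taken encode proteins, with a median span of 5.04 kb. Pseudogenes were 8.82% of the matched members and 2.76% of the matched ranked genes.

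**Figure D5:**
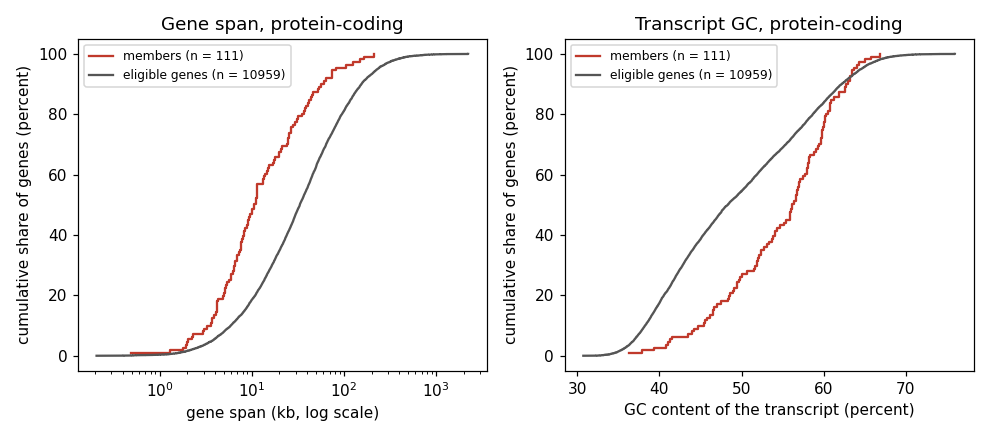
Cumulative share of protein-coding genes by gene span (left, log scale) and by GC content of the transcript (right), for the 111 members and the 10959 ranked genes. The member curve lies to the left for span and to the right for most of the range of GC content.

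Across the 95 members with a promoter in the RefSeq table, the CCAAT box was found in 46 (48.4%), against 35.8% of promoters of ranked genes. It was found in 52.3% of the matched promoters of the first 75 ranks, and in 49.5% of those of the first 300 ranks, which include genes that are not members. The GC box (GGGCGG) was found in 69.5% of member promoters and in 72.6% of those of ranked genes. The E-box (CACGTG) was found in 8.42% and 9.17%, and the ETS motif (CCGGAAGT) in 8.42% and 7.87%. The TATA box (TATAAA) was found in 8 member promoters (8.42%), including both histone genes. It was found in 4.50% of promoters of ranked genes and in 11.1% of all promoters. Both strands were searched in the 250 bases before the start for all of these.

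At the lower end of the ranking the boundary fell in a dense run of genes. The last members were RPLP0P6, ZNF324B, MRTO4, SLC2A6 and NOC2L, and NOC2L had a ratio of 1.338. The genes that followed were SNORA10, at a ratio of 1.337, SLFN12, HMGA1, ZNF707 and SLIT2. HMGA1, an architectural chromatin protein, had 1060 and 1014 CPM in untreated cells and 761 and 743 CPM after doxorubicin. SLIT2, an axon guidance ligand, had 44.2 and 106 CPM against 27.5 and 33.3 CPM. These values lie so close to those of the last members that the boundary separates no distinct group.

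Some lists had no member. None of 28 ranked canonical p53 targets, 79 chromatin regulators, 52 cilium and centrosome genes or 42 genes of double-strand break and crosslink repair was among the 149. This holds for the lists as written, and the p53 list did not include SFN, a member described above. Since 1.19% of all ranked genes were members, lists of this length would hold few or none at the background share. Of the 79 chromatin regulators, 5 were lower in both doxorubicin libraries and 33 higher, and of the 42 repair genes 4 were lower and 19 higher. The 28 p53 targets were 2 lower and 4 higher. Of all ranked genes 13.2% were lower and 29.9% higher. Without untreated replicate 2 the chromatin regulators were 27 lower and 35 higher, and the repair genes 9 lower and 20 higher. The p53 targets were then 2 lower and 20 higher. Among all 12549 ranked genes 3586 were then lower and 6142 higher. Neither the chromatin list nor the repair list then had a larger share of higher genes than the ranked genes as a whole. The p53 list did, so its share rested on untreated replicate 2.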

How the data were processed

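RNA-seq was measured in 4 libraries, 2 of untreated cells and 2 of doxorubicin-treated cells. The authors deposited raw counts per gene without normalization. The submitters' processing notes name HISAT2, HTSeq and hg38, and the file header names GENCODE release 31. Grouping followed the sample titles. CPM was computed from column totals, and 3 counts correspond to between 0.0827 and 0.109 CPM, which covers counting error only. edgeR 4.0.16 (R 4.3.3) was run on the counts as deposited, with filterByExpr, TMM factors, glmQLFit, glmQLFTest and Benjamini-Hochberg adjustment over 17479 genes. Its p-values weigh the difference between groups against the spread between replicates, which edgeR estimates with information shared across genes. It was tested on simulated data. DESeq2 1.42.0, other normalizations, filters and rankings were tried as alternatives.

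The members and the lists were chosen with earlier results of these data known. Genes were named by rank (the first 30, the last 5 and the 5 that follow), by list or symbol class, or by CPM, and the others were named for their role after their values were seen. The roles and the ribosome list were written after the members were seen. Positions, spans, transcript length and GC content came from GENCODE release 44 (GRCh38) by symbol, so they may differ from the models used in counting. Promoters came from the RefSeq table, 250 bases before the start. The sample titles do not say whether replicate numbers pair the libraries, and the main fit did not pair them. The values of some genes are not reported here.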

Additional observations from a re-analysis of the deposited data

How the results depend on the processing

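Depth, 2 libraries a group and the gap between the untreated replicates limit every value. The direction is fixed by the choice of members and is no sign of stability. The number of members called lower was 0 and stayed 0 with RLE normalization, library size alone and no filter. Of 17479 genes tested, DESeq2 called 43 lower, 5 of them members. The likelihood ratio test of edgeR called 8, with 3 members, and its exact test called 5, with 2 members. The members were chosen on the same contrast, so their part among the called genes is no evidence. The replicate block gave 2 members of 4 genes called lower (GON7 and ZNRD1). The deviations of same-numbered libraries had a correlation of 0.0219 across genes. Each group gives only a single difference between replicates, so this value cannot decide whether the numbers pair the libraries. Of the 150 genes, 95 were kept with 1 added to the doxorubicin CPM and 15 when ranked by the ratio of group means. Leaving out each library kept between 3 and 86. The median log2 fold change of the members was -1.14 and ran from -1.35 to -0.85 without each library.

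The spans and GC content under other rankings, and the counts for the sterol and ribosome lists under other settings, were added after the data were seen. The sterol regulatory element was not among the motifs planned for the promoter search and was added to it later. The median span of protein-coding members was 6.70 kb when ranked by group means and between 5.04 and 26.1 kb without each library. Their median GC content ran from 53.8% to 60.2% without each library. The ribosome list had between 47 and 84 genes lower without each library, against 39, since fewer values then have to be separate. Among all ranked genes between 2351 and 4584 were lower without each library, against 1661. For 64 genes named by the rule on rank, list and CPM, of 448 alternative log2 fold changes 422 moved by less than their standard error, 26 by more and 0 changed sign. Of the 26, 20 came from leaving out untreated replicate 2.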
